A study of Mus musculus with 24 samples.

Results

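The loci described here are annotated mouse genes at which nearly all sequenced reads lay on the strand opposite to the gene. They were chosen from counts summed over all 24 liver libraries, as genes with at least 500 opposite-strand counts that made up at least 90% of their stranded counts. A cap kept the 300 with the highest opposite-strand sum, out of 50657 annotated genes. Egfros, an antisense transcript annotated within Egfr, which encodes the epidermal growth factor receptor, was among them at rank 66.

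The libraries came from livers of individual mice given acetaminophen, a painkiller that injures the liver in overdose, at 500 mg/kg. The mice were either wild type (WT) or carried a deletion of Egfr specific to hepatocytes (KO). Livers of 3 mice of each genotype were taken at 0, 1, 3 and 12 h, which gives 8 groups, and polyA RNA was sequenced. The labels do not give the Cre driver, the age or the sex of the mice, or whether the 0 h mice received the drug. Clock times of dosing and tissue collection are not given in the labels, so effects of the drug and of time of day cannot be told apart here.

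In a strand-specific library each read carries the strand of the RNA it came from. A read on the opposite strand of an annotated gene can come from another gene that overlaps it, from an unspliced precursor of a gene on that strand, from a transcript with no annotation of its own, or from a copy made in the wrong direction during library preparation. In liver, whose RNA is dominated by a small number of secreted-protein and metabolic messengers, even a small exon overlap with such a gene can collect many reads.

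Start regions are shown for the loci the results turn on. The Egfr locus has 2 members, Egfros and the predicted gene Gm39584, which start 78.5 kb and 41.2 kb inside Egfr and run on its other strand, so that their opposite-strand reads lie on the strand of Egfr. Hspa5, which encodes the endoplasmic reticulum chaperone BiP, is the other-strand gene beside the member Rabepk. The sequences are the 250 bases before each annotated start, written 5′ to 3′ on the strand of the named gene, from RefSeq on build GRCm38.p6. The counts were made on another build, mm39. Capitals mark GGGCGG on either strand (the GC box, bound by Sp1-type factors) in the first 3 sequences, and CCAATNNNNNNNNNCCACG (the endoplasmic reticulum stress element) in the last.
Egfr, chr11:16751953-16752202, plus strand: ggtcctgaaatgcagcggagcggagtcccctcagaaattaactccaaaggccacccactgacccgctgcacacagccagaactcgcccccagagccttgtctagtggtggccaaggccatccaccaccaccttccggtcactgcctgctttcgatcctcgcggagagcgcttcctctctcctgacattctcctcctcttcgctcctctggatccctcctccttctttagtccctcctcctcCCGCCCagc
Egfros, chr11:16830751-16831000, minus strand: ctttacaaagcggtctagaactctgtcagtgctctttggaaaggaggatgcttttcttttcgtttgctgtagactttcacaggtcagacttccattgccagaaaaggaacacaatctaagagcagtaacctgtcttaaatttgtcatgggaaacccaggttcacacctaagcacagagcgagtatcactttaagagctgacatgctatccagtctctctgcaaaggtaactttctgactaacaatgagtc
Gm39584, chr11:16793450-16793699, minus strand: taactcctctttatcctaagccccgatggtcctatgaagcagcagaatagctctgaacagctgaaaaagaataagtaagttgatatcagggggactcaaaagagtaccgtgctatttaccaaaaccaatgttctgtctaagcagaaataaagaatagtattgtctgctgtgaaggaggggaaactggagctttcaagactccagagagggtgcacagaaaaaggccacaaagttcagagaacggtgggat
Hspa5, chr2:34771840-34772089, plus strand: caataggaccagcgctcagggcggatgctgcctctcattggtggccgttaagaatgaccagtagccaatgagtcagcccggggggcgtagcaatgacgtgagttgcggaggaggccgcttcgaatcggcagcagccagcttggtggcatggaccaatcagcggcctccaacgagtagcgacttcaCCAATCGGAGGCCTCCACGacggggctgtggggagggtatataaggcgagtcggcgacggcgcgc

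Egfr's region held 11 CpG dinucleotides and 1 GGGCGG match, and the regions printed for Egfros and Gm39584 held 3 CpG each and no match. Over all 32851 start regions of this length in the table, the median was 6 CpG, 32.7% held GGGCGG and 0.113% held the stress element. Both antisense loci have a second annotated start, not printed. Of the 300 members, 181 had a start region in the table.

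Libraries held 20.0 to 36.2 M reads, of which 3.52 to 7.57 M were counted on the gene's strand and 1.07 to 2.76 M on the opposite strand. One locus outside the set, AY036118, took 82.49% to 89.97% of the opposite-strand counts. After AY036118 and mitochondrial genes were set aside, the 300 members took 41.7% to 51.4% of what was left. Levels are given in CPM, opposite-strand counts divided by the TMM-scaled gene-strand library size in M counts. The sum of 5 hepatocyte markers ran from 2.582e+04 to 4.543e+04 CPM over the libraries, and the lymphocyte marker Trbc2 was at 0 in all. The sum of 4 cholangiocyte markers was 6.37 to 21.1 CPM at 0 to 3 h, 99.9 to 208 CPM in WT at 12 h and 26.6 to 112 CPM in KO at 12 h. In bulk tissue, fewer cells of a type and less RNA per cell cannot be told apart. WT 3 h libraries 2 and 3 stood apart from the first at several loci below, and erythroid markers reached 308 CPM in the WT 3 h group.

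The 300 members together held 1660740 opposite-strand counts, with a median of 1635 and a range of 868 to 397257 per locus. The median member had 98.9% of its stranded counts on the opposite strand, and 134 had 99% or more. The 5 loci with most counts (Gm53756, Mup-ps1, Ccdc152, Gm40616 and Gm10069) held 50.6% of them. By symbol, 213 members were predicted genes, 80 carried another gene symbol, 4 were named as antisense and 3 as pseudogenes. The 2 members just inside the cap were 1500002F19Rik with 873 counts and Ccdc73 with 868, and just outside lay Rundc3a with 861 and Gm40811 with 858. At the share threshold, Gm16548 (90.1%) and Nop9 (90.3%) were inside, and Gm50587 (89.7%) and Gm32064 (88.9%) outside. At the sum of 500, Neto2 (502) and Gm34365 (501) passed but fell past the cap, and Gm16322 (497) and Itgb2l (496) did not pass.

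Whether a member's reads also met an exon of another gene could be read from the unstranded count, which drops a read that touches exons of more than 1 gene. At 106 members the unstranded count was at least 90% of the stranded ones, so most or all reads met no exon of another counted gene (unshared). At 86 it was at most 10%, so nearly all reads also lay in an exon of another gene (shared), and 108 fell between (mixed). Gm53756, a predicted gene, was unshared, whereas Mup-ps1, a pseudogene of the major urinary protein family, and Ccdc152, a coiled-coil protein gene, were shared. Reads at Mup-ps1 are uncertain, because that family holds many near-identical copies.

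**Figure D1:**
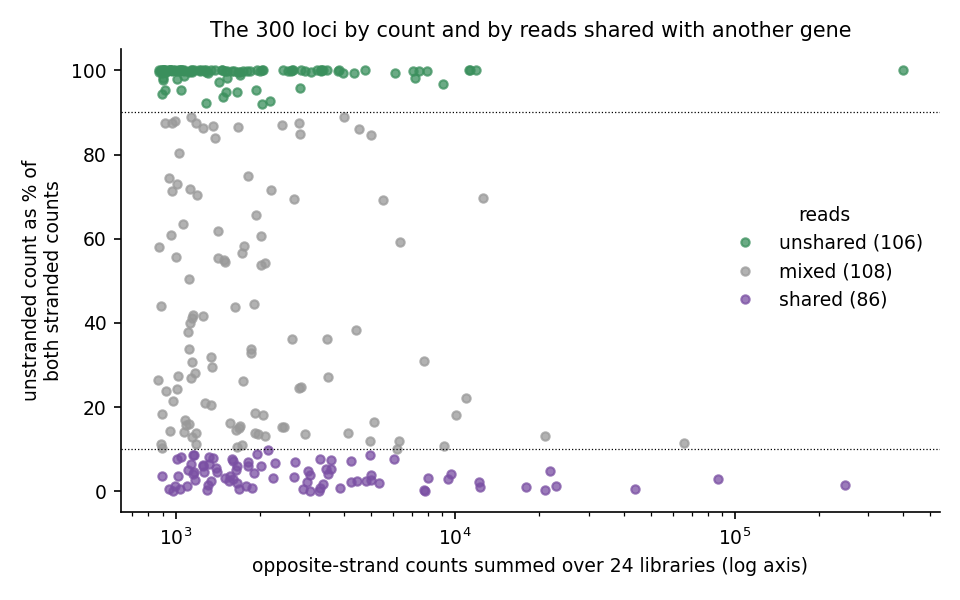
Each point is 1 of the 300 loci. The horizontal log axis is the opposite-strand count summed over 24 libraries, and the vertical axis is the unstranded count as a percentage of both stranded counts. Dotted lines at 90% and 10% separate the 106 unshared, 108 mixed and 86 shared loci, and each class is spread over the range of counts.

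Positions on GRCm38 were found for 236 members. Of these, 209 (88.56%) overlapped an annotated gene on the other strand, which is the strand of their reads, and 19 more had one within 10 kb. Among 42181 other placed genes the share with such an overlap was 31.86%. Exon-to-exon overlap was annotated in GENCODE for 48 of 57 shared, 50 of 65 mixed and 13 of 46 unshared members. The other-strand gene, called the neighbour, belonged to the acute phase list for 1 member (Gm30097, beside the fibrinogen gene Fgg), to the plasma protein list for 2 (Gm30505 beside Ahsg and Tomm40l beside Nr1i3 and Apoa2) and to the integrated stress response list for 1 (Tulp2). None lay beside a gene of the immediate early, clock, p53 or drug metabolism lists.

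Egfr itself, the targeted gene, was counted on its own strand. Its levels in WT were 376, 334 and 453 CPM at 0 h, 329, 401 and 394 at 1 h, 303, 623 and 455 at 3 h, and 266, 207 and 203 at 12 h. In KO they were 58.4, 76.4 and 107 CPM at 0 h, 330, 134 and 152 at 1 h, 82.0, 182 and 267 at 3 h, and 65.7, 117 and 41.8 at 12 h. KO libraries lay below all WT libraries of the same time, apart from KO 1 h replicate 1. Its 330 CPM was just above the 329 of the lowest WT 1 h library and below the other WT 1 h values. The reason for the level in that KO library was not tested. The mean KO minus WT difference over the 4 times was -1.60 on the log2(CPM + 1) scale (exact permutation of genotype within times, two-sided, p = 2.5e-05, Benjamini-Hochberg adjusted over 5 such tests 0.000125), and -1.70 without that library.

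Reads at Egfros overlapped between the genotypes. In WT, Egfros had 38.7, 56.5 and 29.7 CPM at 0 h, 9.07, 14.3 and 33.1 at 1 h, 11.9, 13.5 and 14.7 at 3 h, and 20.6, 16.5 and 11.0 at 12 h. In KO it had 32.2, 83.4 and 47.8 CPM at 0 h, 8.30, 12.0 and 10.3 at 1 h, 7.36, 16.8 and 11.2 at 3 h, and 24.5, 21.6 and 9.29 at 12 h. This overlap was present at every time. Within each genotype all 0 h libraries lay above all later ones, except that WT 1 h replicate 3 lay above the lowest WT 0 h library. The mean KO minus WT difference was -0.11 (log2(CPM + 1), exact permutation p = 0.648, adjusted 0.727), between -0.20 and 0.02 when each library was left out. The ratio of Egfros to Egfr was 1.498 log2 units higher in KO, which is the difference between the Egfros and Egfr values and so holds the deletion of Egfr in its denominator. The smallest p these permutations can give is 1.25e-05.

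Gm39584, the second antisense locus within Egfr, was likewise highest at 0 h and overlapped between genotypes, and its permutation tests were added after its values were seen. It had 65.5, 87.0 and 61.3 CPM in WT at 0 h, 12.0, 23.3 and 41.0 at 1 h, 16.5, 26.2 and 25.6 at 3 h, and 32.5, 24.4 and 22.3 at 12 h. In KO it had 76.1, 179 and 91.3 CPM at 0 h, 14.7, 17.8 and 16.4 at 1 h, 14.9, 31.9 and 17.4 at 3 h, and 40.6, 40.8 and 19.7 at 12 h. In both genotypes all 3 libraries at 0 h lay above all 9 later ones. The KO minus WT difference over the 4 times was 0.08 (exact permutation p = 0.727, adjusted 0.727). Both loci lie within Egfr and their counts come from the same libraries, so they are not independent of each other.

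The fall after 0 h was tested with edgeR's quasi-likelihood test, adjusted by Benjamini-Hochberg over all 3440 opposite-strand features tested. In KO, Egfros fell by 2.41 log2 units at 1 h (SE 0.47, adjusted p = 0.00168), by 2.23 at 3 h (adjusted p = 0.0024) and by 1.54 at 12 h (adjusted p = 0.0185). In WT it fell by 1.63 at 3 h (adjusted p = 0.0183) and 1.38 at 12 h (adjusted p = 0.038), and the 1 h value of -1.15 did not pass (adjusted p = 0.109). Gm39584 fell in both genotypes at all 3 times, by 2.82, 2.45 and 1.76 in KO and by 1.49, 1.65 and 1.43 in WT, with adjusted p from 0.000171 to 0.0219 in the same test. The 3 times of a genotype share the same 0 h mice, so these are not separate observations. The KO 12 h fall of Egfros became -1.09 (adjusted p = 0.104) without KO 0 h replicate 2, whose 83.4 CPM was the highest value, and was also lost without KO 12 h replicate 3. The WT 12 h fall was lost without any of 5 single libraries. Leaving out WT 0 h replicate 2 or WT 3 h replicate 1 ended the WT 3 h call. For Gm39584 the KO calls held without each library, whereas each WT call was lost without at least 1. The WT 1 h call was lost without WT 0 h replicate 2, WT 1 h replicate 1 or WT 1 h replicate 2 (adjusted p up to 0.0956), the WT 3 h call without WT 3 h replicate 1 (0.0576), and the WT 12 h call without WT 0 h replicate 2, WT 12 h replicate 2 or WT 12 h replicate 3 (up to 0.0668). The difference between the genotypes' responses did not pass at any time for either locus, with the nearest being Gm39584 at 1 h (-1.33, SE 0.58, adjusted p = 0.451). Egfr on its own strand had no response that passed (KO 1 h 1.34, adjusted p = 0.0896).

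**Figure D2:**
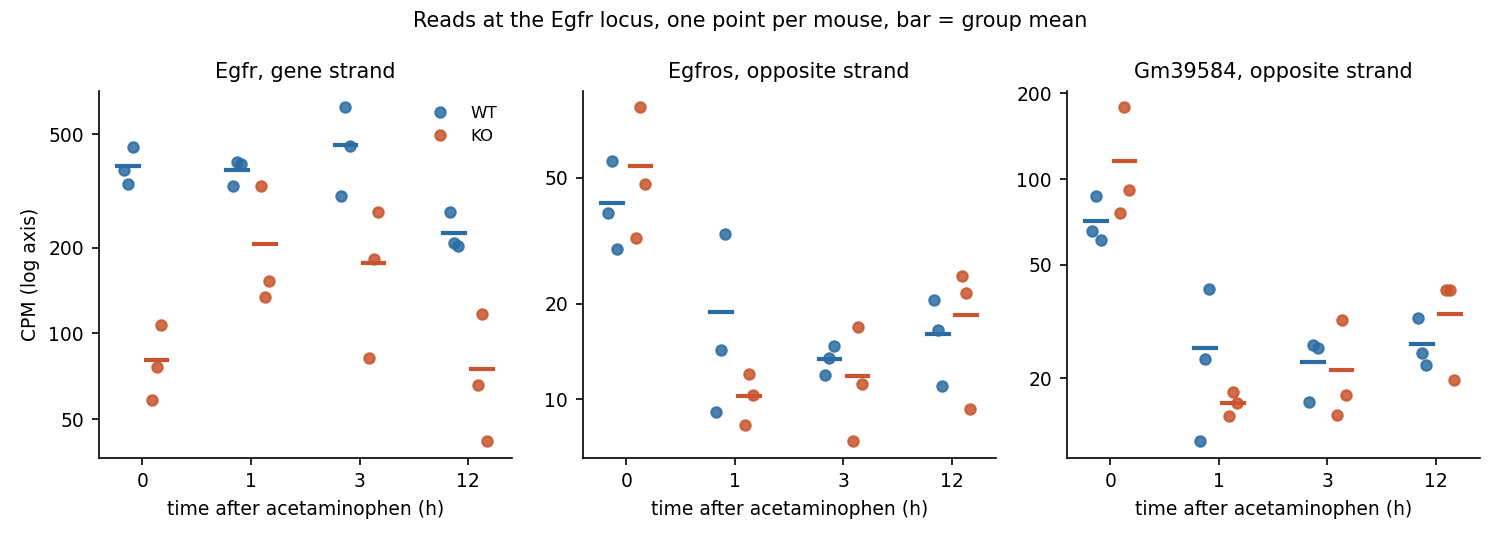
The 3 panels show Egfr on its own strand, and Egfros and Gm39584 on the opposite strand, as CPM on log axes against time in hours. Points are single mice and bars are group means of 3. Egfr is lower in KO apart from 1 library at 1 h, whereas the other loci overlap between genotypes and are highest at 0 h.

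All 300 members passed the filter on low counts. Against 0 h, 25 members were higher and 33 lower in WT at 1 h, which is 58 of 300 beside 14.5% called over all tested features (8.75% higher, 5.73% lower). At 3 h in WT 31 were higher and 42 lower (background 21.6%, with 14.8% higher and 6.83% lower), and at 12 h 60 and 43 (30.4%, 21.5% and 8.87%). In KO, 24 were higher and 38 lower at 1 h (16.8%, 11.6% and 5.23%), 35 and 30 at 3 h (20.5%, 15% and 5.47%), and 70 and 46 at 12 h (32.4%, 23.7% and 8.72%). As shares of the 300 members, falls took 10% to 15.3% and rises 8% to 23.3%. The members' share of falls lay above the background in all 6 comparisons and their share of rises below it in all 6. These differences were not tested. At 12 h the median log2 change was 0.12 over members and 0.25 over all features in WT, and 0.08 and 0.31 in KO.

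The balance of rises and falls depended on the scaling. At 12 h in WT, 58.3% of called members were higher with gene-strand scaling, 26.9% with library size alone (36 higher, 98 lower), and 46 were higher and 75 lower with scaling by the opposite-strand counts themselves. The corresponding KO values were 60.3%, 37.6% and 40.3%. At 3 h in WT they were 42.5%, 31.9% and 30.6%, and for KO at this time opposite-strand scaling gave 32.3% in place of 53.8%. Library size alone moved the median of all features at 12 h by -0.44 in WT and by -0.36 in KO, and opposite-strand scaling by -0.22 and -0.24. The cholangiocyte marker sums were higher at 12 h, as given above, and their part in the 12 h counts was not tested.

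**Figure D3:**
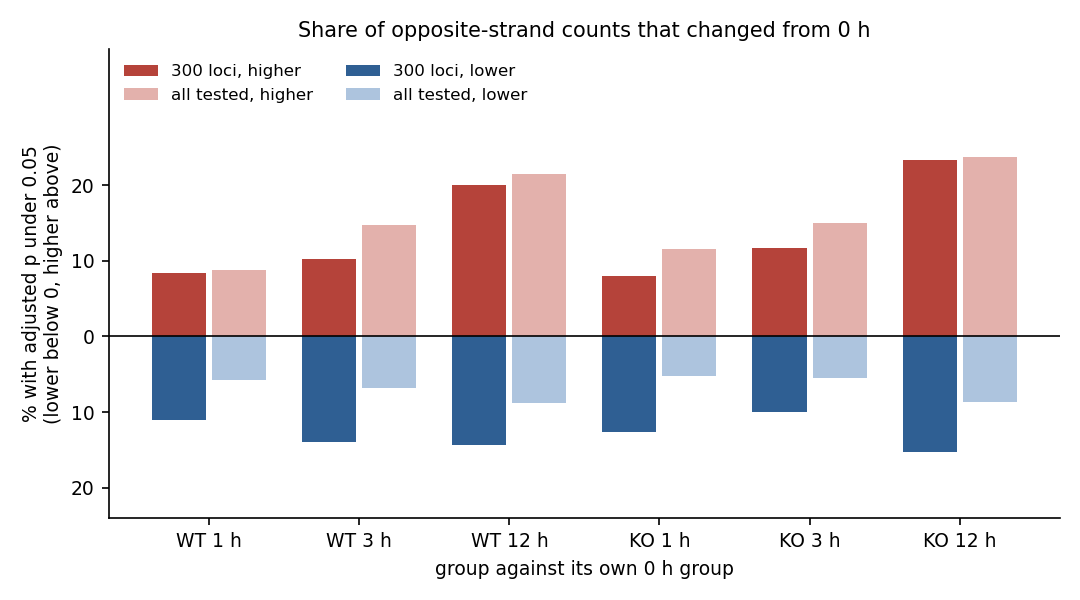
Bars give the percentage of loci with an adjusted p under 0.05 against the 0 h group of the same genotype, higher above 0 and lower below 0, for the 300 loci (dark) and all 3440 tested opposite-strand features (pale). The dark bars reach further down than the pale ones in all 6 comparisons, while the upper bars of the 12 h groups are the tallest, 60 loci in WT and 70 in KO.

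The genotypes' calls came from different mice and could be overlaid. At 12 h, 47 members were higher in both genotypes, which is 78.3% of those called in WT and 67.1% of those called in KO, and 28 were lower in both (65.1% and 60.9%). Over all 3440 features these shares were 72.6% and 65.8% for rises and 57% and 58% for falls. At 3 h 15 members were higher in both (48.4% of WT and 42.9% of KO calls, beside 62.5% and 61.6% over all features) and 23 lower (54.8% and 76.7%, beside 44.7% and 55.9%). At 1 h 11 were higher (44% and 45.8%, beside 62.8% and 47.5%) and 20 lower (60.6% and 52.6%, beside 37.6% and 41.1%). The differences between these shares were not tested. Members called in opposite directions were Gm34218 at 1 h (WT -0.71, KO 0.70) and at 3 h (WT -0.94, KO 0.81), Gm52920 at 1 h (WT 0.91, KO -0.75) and Gm16146 at 3 h (WT -0.55, KO 1.08), with none at 12 h. Gm52920 falls outside the rule for named genes and is named because so few moved this way.

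A larger share of unshared than of shared members was called. In WT at 12 h, 31 unshared members of 106 were higher and 21 lower, against 20 and 20 of 108 mixed and 9 and 2 of 86 shared. In KO at 1 h these were 16 and 25 unshared, 6 and 12 mixed, and 2 and 1 shared. The difference between classes was not tested. For 213 members the neighbour could be tested on its own strand. In WT at 12 h member and neighbour were called in the same direction at 43 of these, in opposite directions at 1, the member alone at 31, the neighbour alone at 32 and neither at 106. In KO at 12 h these numbers were 50, 1, 33, 33 and 96. In KO at 1 h they were 4, 1, 41, 10 and 157, and of the 41 members called alone 29 were unshared. At a shared locus whose reads lie in exons of the neighbour, the same read enters the member's opposite-strand count and the neighbour's own count. Likeness between these counts is then no separate measurement. The exons that shared reads met need not be the neighbour's, as 5 placed shared members had a neighbour only within 10 kb.

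**Figure D4:**
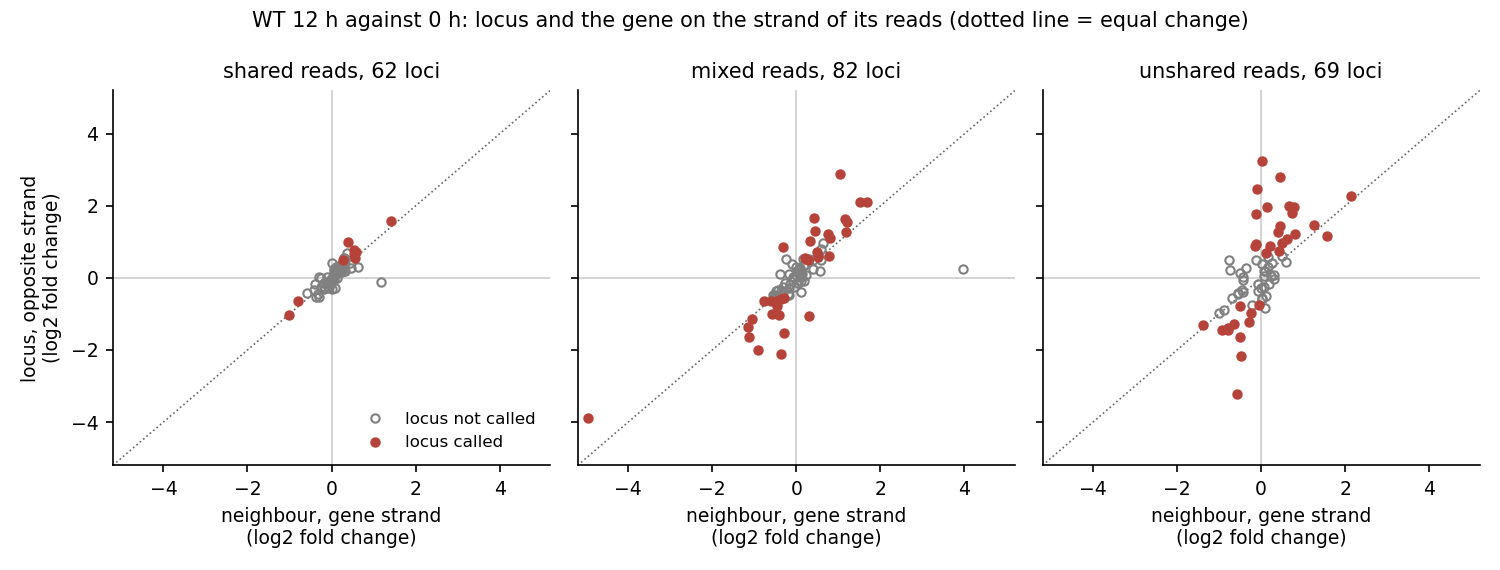
Each point is 1 of 213 loci with a tested neighbour, split into 62 shared, 82 mixed and 69 unshared. The horizontal axis is the log2 fold change of the neighbour on its own strand and the vertical axis that of the locus on the opposite strand, WT at 12 h against 0 h, with filled points for called loci. The median distance from the dotted line of equal change is 0.13 log2 units for shared, 0.21 for mixed and 0.48 for unshared loci, the shared locus farthest from it lies 1.29 away, and several unshared loci lie far above or below neighbours that changed little.

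Among shared loci, Rabepk rose together with Hspa5. Rabepk encodes a kelch-repeat protein that binds the Rab9 trafficking GTPase, and Hspa5 lies within 10 kb of it on the other strand. Nearly all Rabepk reads also met an exon of another gene, but the GRCm38 annotation holds no overlap with Hspa5. Whether both genes' counts hold the same reads was not tested. Rabepk had 108, 130 and 74.5 opposite-strand CPM in WT at 0 h and 310, 280 and 338 at 12 h. KO had 126, 146 and 94.4 at 0 h and 243, 285 and 285 at 12 h. In each genotype all 12 h libraries lay above all 0 h libraries. The rise was 1.57 log2 units in WT (SE 0.19, edgeR adjusted p = 5.46e-09) and 1.15 in KO (adjusted p = 4.3e-06), beside 1.42 and 1.09 for Hspa5 on its own strand. With unstranded counts the rises were 3.42 and 2.93, but these rest on 1057 counts in all, beside 21814 on the opposite strand. A smaller WT rise at 1 h (0.63, adjusted p = 0.0165) was lost without WT 0 h replicate 3, WT 1 h replicate 2 or WT 1 h replicate 3.

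Gm51444, beside the cytochrome P450 gene Cyp2a12, had 88.7, 80.3 and 76.9 CPM in WT at 0 h and 118, 116 and 125 at 12 h. There was no overlap between the groups, and the rise of 0.54 (edgeR adjusted p = 0.00803) stood beside 0.56 for Cyp2a12. It became 0.16 (adjusted p = 0.486) with library size alone, 0.35 (adjusted p = 0.114) with opposite-strand scaling and 0.11 (adjusted p = 0.936) with unstranded counts. Dynlt4, a dynein light chain gene with shared reads and no position in the table used, rose most of all members at 12 h in WT. It had 15.0, 15.7 and 11.1 CPM in WT at 0 h, 186, 179 and 268 at 12 h, and in KO 13.2, 27.7 and 18.7 at 0 h and 224, 207 and 282 at 12 h. The 12 h groups lay far above the 0 h groups, by 3.93 log2 units in WT (SE 0.29, adjusted p = 9.93e-12) and 3.58 in KO (SE 0.28, adjusted p = 5.46e-11).

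A further 3 shared loci rose in WT at 3 h, and at each of them replicates 2 and 3 were the highest WT 3 h libraries. Leaving these libraries out, a choice made after seeing their values, keeps 1 WT mouse at 3 h, which is assumed to vary like the other groups. Gm30097, whose reads lie in exons of the fibrinogen gamma chain gene Fgg, had 140, 385 and 502 CPM in WT at 3 h, 122, 118 and 124 in WT at 0 h and 126, 118 and 128 in KO at 3 h. Only replicates 2 and 3 were far above the rest. The WT rise of 1.49 (edgeR adjusted p = 4.65e-05) became 0.21 without them, and the KO minus WT difference at 3 h went from -1.46 (adjusted p = 0.00201) to -0.16. With all libraries but only the compared groups fitted, that difference was again -1.46 and did not pass (edgeR adjusted p = 0.496). Gm10069, beside the protease inhibitor gene Pzp, had 295, 581 and 570 CPM in WT at 3 h against 339, 287 and 300 at 0 h. Its rise of 0.64 became -0.07 without the same libraries, and its KO minus WT difference of -0.84 became -0.12. With unstranded counts, which drop nearly all reads of a shared locus, these were -0.79 and 0.34. Neither the rise nor the difference passed with only the compared groups fitted (edgeR adjusted p = 0.0735 and 0.223). Gm30505, beside the fetuin gene Ahsg, had 153, 269 and 238 CPM in WT at 3 h against 140, 154 and 139 at 0 h. Its rise of 0.61 became 0.08, and -0.28 with unstranded counts. It was also lost with library size alone (adjusted p = 0.0614), with opposite-strand scaling (adjusted p = 0.0654) and with only the compared groups fitted (adjusted p = 0.0622).

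Dlec1, whose shared reads lie in the peroxisomal thiolase gene Acaa1b, moved the other way in the same libraries. It had 112, 56.4 and 50.1 CPM in WT at 3 h against 142, 93.6 and 138 at 0 h. Again only replicates 2 and 3 lay below every 0 h library, and the fall of 0.77 became -0.16 without them. With only the compared groups fitted, the fall of 0.77 did not pass (edgeR adjusted p = 0.0779). Gm35679, unplaced and shared, had 48.8, 84.9 and 89.8 CPM in WT at 3 h and 42.4, 42.2 and 35.8 in KO at 3 h. Its KO minus WT difference of -0.89 became -0.27. What set these libraries apart was not tested.

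Ccdc152 overlaps Selenop, the gene of the liver-made selenium carrier of plasma. Its 720, 680 and 724 CPM in WT at 12 h lay above the 550, 363 and 386 in KO. The difference of -0.71 (edgeR adjusted p = 0.0402) was lost without any of 9 single libraries and was -0.14 with unstranded counts, and Selenop itself differed by -0.33 (adjusted p = 0.409). Gm867, which overlaps the mitochondrial protein gene Chchd10, had 115, 81.5 and 123 CPM in KO at 0 h and 61.5, 17.2 and 14.3 at 12 h. No library of one group reached the other. The fall of 1.78 (adjusted p = 0.0193), beside -1.08 for Chchd10, was lost without KO 0 h replicate 3, KO 12 h replicate 2 or KO 12 h replicate 3. Gm40616, beside the urea cycle gene Arg1, ranged from 365 to 612 CPM over all libraries and was not called in any comparison.

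The locus with most counts, Gm53756, is unplaced. It had 2972, 1856 and 2848 CPM in WT at 0 h and 3426, 3720 and 3454 at 12 h. These groups did not overlap, and the rise of 0.47 (SE 0.16, edgeR adjusted p = 0.0243) was its only call. It was lost without WT 0 h replicate 2 or WT 12 h replicate 2, and became 0.07 (adjusted p = 0.767) with library size alone and 0.27 (adjusted p = 0.271) with opposite-strand scaling. Mup-ps1 ranged from 430 to 2825 CPM over the 24 libraries and was not called in any comparison. Gm46110 overlaps Sik3, a salt-inducible kinase gene. It had 89.8, 104 and 99.9 CPM in KO at 0 h, 64.7, 53.4 and 53.9 at 1 h, and 157, 112 and 139 at 12 h. It was thus lowest at 1 h and highest at 12 h of these KO groups, with a fall of 0.78 at 1 h (adjusted p = 0.00104) and a rise of 0.47 at 12 h (adjusted p = 0.0325). The KO 12 h call was lost without KO 0 h replicate 1 or 3 or KO 12 h replicate 1 or 3. That rise was 0.17 (adjusted p = 0.506) with library size alone and 0.27 (adjusted p = 0.248) with opposite-strand scaling. In KO at 3 h Gm46110 was at -0.71 (edgeR adjusted p = 0.00209). In WT at 12 h it rose by 0.97 (edgeR adjusted p = 2.33e-05), a call that held without each library. With library size alone the WT rise was 0.58 (adjusted p = 0.00772).

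Several loci with unshared or mixed reads rose by more than the neighbouring gene. Gm31595 overlaps Acsl5, a long-chain acyl-CoA synthetase gene. It had 9.25, 7.84 and 10.3 CPM in WT at 0 h and 61.2, 51.1 and 93.2 at 12 h, and in KO 8.87, 9.14 and 9.36 at 0 h and 73.5, 55.5 and 81.1 at 12 h. All 12 h libraries were several times above all 0 h ones. The rise was 2.90 in WT (SE 0.24, edgeR adjusted p = 4.35e-13) and 2.93 in KO (SE 0.23, adjusted p = 5.93e-13), beside 1.04 and 0.75 for Acsl5. With unstranded counts the KO rise was 4.48.

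Gm38787 overlaps Cald1, the gene of the actin-binding protein caldesmon. It had 7.99, 12.1 and 10.2 CPM in WT at 0 h and 52.5, 34.05 and 31.5 at 12 h. KO had 14.5, 13.3 and 14.5 at 0 h and 95.9, 67.1 and 38.6 at 12 h. The 0 h and 12 h groups did not overlap in either genotype, with rises of 1.98 (adjusted p = 1.19e-05) and 2.26 (adjusted p = 1.14e-06), whereas Cald1 was at 0.14 and 0.16 and did not pass the test.

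Gm34771, which overlaps the fatty acid elongase gene Elovl5, had 2.03, 3.81 and 1.98 CPM in WT at 0 h and 12.6, 13.1 and 25.7 at 12 h. The groups did not overlap, and the rise was 2.79 (edgeR adjusted p = 3.08e-07) beside 0.46 for Elovl5. In KO the 12 h rise was 1.33 (adjusted p = 0.0023). Emilin2, an extracellular matrix gene near the phosphatidate phosphatase gene Lpin2, had 3.17, 4.66 and 3.16 CPM in WT at 0 h and 8.80, 19.2 and 17.6 at 1 h. Its WT 1 h rise was 2.08 (adjusted p = 0.000369) while Lpin2 was at -0.11 (adjusted p = 0.811). In WT at 12 h both were higher, Emilin2 by 1.96 (edgeR adjusted p = 0.000467) and Lpin2 by 0.77 (adjusted p = 0.00167).

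Ctxnd1, a cortexin-domain gene beside Fah, the last enzyme of tyrosine breakdown, had few counts at 0 h. It had 1.39, 0.635 and 1.85 CPM in WT at 0 h, 4.54, 4.80 and 7.02 at 1 h, 10.7, 11.5 and 9.01 at 3 h, and 12.9, 12.8 and 14.2 at 12 h. In KO it had 1.09, 2.21 and 0.863 CPM at 0 h, 11.1, 7.83 and 7.75 at 1 h, 7.66, 6.34 and 10.1 at 3 h, and 5.08, 6.46 and 5.72 at 12 h. Every later library lay above every 0 h library of its genotype, and at 12 h KO lay below WT. The rises were 1.97, 2.90 and 3.26 in WT and 2.67, 2.55 and 2.06 in KO (edgeR, largest adjusted p 8.5e-06), and Fah did not pass at any of these times. The KO minus WT difference at 12 h was -1.20 (SE 0.27, adjusted p = 0.0195), lost without any 1 of 5 of the 6 libraries at 12 h. Gm6185, near the peroxiredoxin gene Prdx6, likewise rose at all 3 times, by 1.51 to 2.47 in WT and 1.59 to 2.38 in KO.

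Further loci chosen by the same rule rose in KO at all 3 times. Gm41442, with mixed reads, had 2.65, 3.10 and 3.33 CPM in KO at 0 h, 10.03, 10.4 and 9.40 at 1 h, 10.3, 11.2 and 11.01 at 3 h, and 14.04, 15.7 and 14.3 at 12 h. All later KO libraries lay above all 0 h ones, with rises of 1.70, 1.82 and 2.27 (edgeR, largest adjusted p 1.31e-07), and in WT it rose by 1.44 at 3 h and 2.04 at 12 h. Gm40531 overlaps the class I myosin gene Myo1e. It rose by 0.98, 1.94 and 2.67 in KO at 1, 3 and 12 h and by 1.99 in WT at 12 h. Myo1e was at 0.70 in KO at 12 h. Gm52697, overlapping Phf24, rose by 1.21, 1.75 and 2.59 in KO and by 1.38 and 2.27 in WT at 3 and 12 h.

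Gm53812, unplaced and unshared, rose late. It had 11.9, 13.6 and 17.1 CPM in WT at 0 h and 88.9, 73.2 and 65.6 at 12 h, and in KO 18.7, 16.7 and 16.4 at 0 h and 61.5, 48.7 and 72.2 at 12 h. The 12 h libraries were several times above the 0 h libraries in both genotypes, by 2.41 in WT (SE 0.21, edgeR adjusted p = 5.57e-13) and 1.81 in KO (SE 0.21, adjusted p = 1.29e-09), and neither genotype passed at 1 or 3 h. Klrg2, named for a lectin-like receptor, rose early, by 1.33 and 1.4996 in WT and by 1.01 and 0.94 in KO at 1 and 3 h. Gm26911, which overlaps the ubiquitin ligase gene Pdzrn3, rose by 1.22 in WT and 1.24 in KO at 1 h. Gm38942 rose by 1.63 and 1.74 in WT at 1 and 3 h, lost without any of 8 and 3 single libraries.

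Gm13872 showed the steepest falls at 12 h. It overlaps Slc1a2, the gene of a glutamate transporter found in hepatocytes around the central vein. It had 10.7, 9.53 and 10.4 CPM in WT at 0 h and 1.61, 0.567 and 0 at 12 h, and in KO 13.5, 14.7 and 11.8 at 0 h and 0, 0.995 and 0 at 12 h. The 12 h values rest on 7 counts in WT and 4 in KO, beside 208 and 283 at 0 h. The locus fell by 3.88 in WT (SE 0.44, edgeR adjusted p = 3.03e-09) and fell by 5.02 in KO (SE 0.48, adjusted p = 4.26e-11), beside -4.96 and -4.82 for Slc1a2 on its own strand. All 4 KO counts at 12 h came from replicate 2, without which the fitted KO change was -9.31, so these counts do not fix its size. The unstranded count of Gm13872 was 11.2% of its stranded ones (mixed), and its exons overlap those of Slc1a2. Most of its reads thus also lay in an exon of another gene. The falls of Gm13872 and Slc1a2 can therefore rest partly on the same reads, which was not tested.

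Gm46559 overlaps Hgd, the homogentisate dioxygenase gene of tyrosine breakdown, and its reads were unshared. It had 12.9, 17.4 and 13.4 CPM in WT at 0 h and 1.29, 2.55 and 0.787 at 12 h, and in KO 18.2, 23.0 and 23.7 at 0 h and 1.20, 2.73 and 2.14 at 12 h. The groups were far apart in both genotypes. It fell by 3.22 in WT (SE 0.35, adjusted p = 4.65e-10) and 3.38 in KO (SE 0.32, adjusted p = 2.04e-11), beside falls of 0.57 and 0.51 for Hgd.

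Other unshared loci fell early. 4930517O19Rik overlaps Klf12, a transcriptional repressor gene. It had 46.4, 40.0 and 41.9 CPM in WT at 0 h and 17.2, 17.4 and 13.2 at 1 h, and in KO 51.2, 45.5 and 44.9 at 0 h and 15.4, 12.8 and 13.1 at 1 h. There was no overlap between the groups, with falls of 1.42 in WT (adjusted p = 1.09e-06) and 1.78 in KO (adjusted p = 5.63e-09), while Klf12 was at -0.27 and 0.08 without passing. C330002G04Rik, beside the cation channel gene Trpm3, which was near 0 on its own strand, fell by 1.52 in WT and 1.39 in KO at 1 h and by 2.94 and 2.50 at 12 h. Gm30635, which overlaps the adaptor protein gene Sorbs2, had 36.9, 32.2 and 28.6 CPM in WT at 0 h and 8.40, 9.33 and 9.96 at 1 h. Its 1 h falls were 1.82 in WT and 1.68 in KO, and Sorbs2 did not pass at 1 h in either.

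Mixed loci that fell included Tulp2, a tubby-like protein gene whose other-strand genes are Dhdh, Nucb1 and the integrated stress response gene Ppp1r15a. It had 25.2, 43.4 and 23.3 CPM in WT at 0 h and 8.00, 9.33 and 10.6 at 1 h. No library of one group reached the other, and the fall was 1.71 in WT (edgeR adjusted p = 9.68e-07) and 0.83 in KO (adjusted p = 0.0106). Dhdh, a dihydrodiol dehydrogenase gene, did not pass at 1 h in either. The exons of Tulp2 also overlap those of Ppp1r15a, whose change is not given here. Gpr17, a receptor gene whose reads partly met exons of the focal adhesion gene Lims2, fell by 1.90 in WT and 1.23 in KO at 1 h, where Lims2 was at -0.83 and -0.49. Gm36492, unplaced, fell by 1.55 in WT at 1 h (adjusted p = 3.28e-07) and was at -0.53 in KO (adjusted p = 0.0582).

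Gm41668, unplaced and unshared, had 22.8, 18.2 and 16.1 CPM in WT at 0 h and 5.53, 7.65 and 7.75 at 3 h, and in KO 18.06, 21.7 and 18.1 at 0 h and 6.92, 5.69 and 6.05 at 3 h. No 3 h library reached a 0 h library, and it fell by 1.46 in WT and 1.62 in KO. Hexim2, a gene for an inhibitor of the elongation kinase P-TEFb, fell by 2.24 in WT (adjusted p = 3.19e-07) and 1.18 in KO (adjusted p = 0.0012) at 12 h. Mfsd4a, a transporter gene overlapping Elk4, fell by 0.56 in WT at 12 h (adjusted p = 0.00931), lost without WT 0 h replicate 3 or WT 12 h replicate 2, and was at -0.95 with library size alone. Gm52676, among the 15 loci with most counts, ranged from 77.9 to 222 CPM and was not called against 0 h in either genotype.

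**Figure D5:**
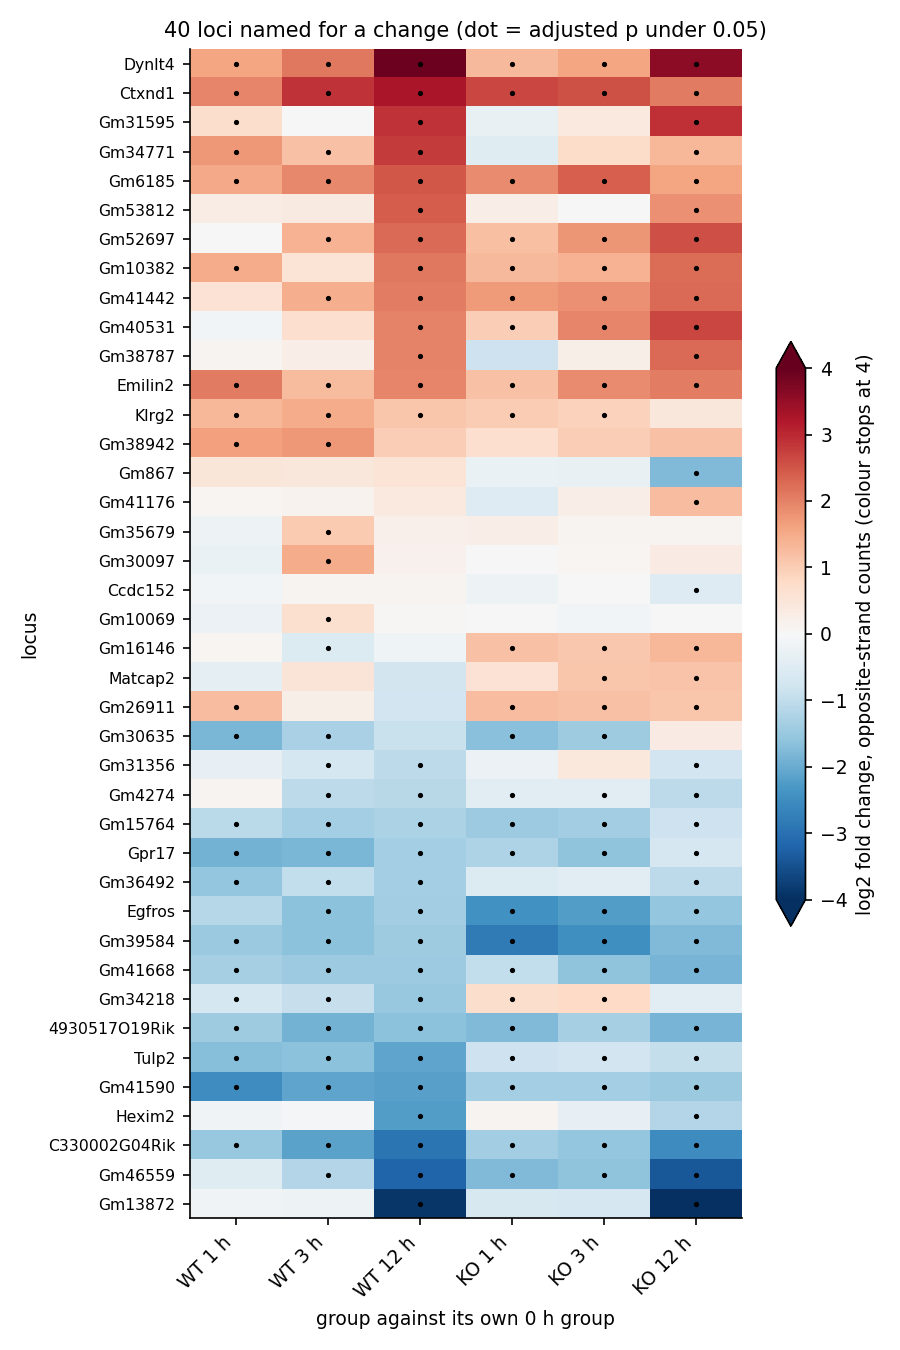
Rows are the 40 loci chosen by the naming rule for a change in any comparison and columns are the 6 groups against the 0 h group of the same genotype. Colour gives the log2 fold change of the opposite-strand count, red for higher and blue for lower, and dots mark an adjusted p under 0.05. Dynlt4, Ctxnd1 and Gm31595 are deep red at 12 h in WT, and Gm13872 and Gm46559 deep blue at 12 h in both genotypes.

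Between genotypes at one time, few members differed. At 0 h none was higher and 2 were lower in KO (0.116% of all features called, 0.0581% lower). At 1 h none passed in edgeR (background 0.145%, with 0.0872% lower). An unadjusted p under 0.05 was found for 42 members and for 299 of all 3440 features, and DESeq2 called 2 members and 7 features. At 3 h 2 were higher and 3 lower (background 0.436%, with 0.233% higher and 0.203% lower), and at 12 h 1 was higher and 2 lower (background 0.436%, with 0.145% and 0.291%). With library size alone these became 3 and 3 at 3 h and 1 and 0 at 12 h, and with opposite-strand scaling 1 and 4, and 1 and 1. For the difference averaged over the 4 times edgeR called none of the members and none of the features (0%). There, 21 members and 172 features had an unadjusted p under 0.05, and DESeq2 called none of either. Without WT 3 h libraries 2 and 3, which leaves 1 WT mouse at that time, the 5 calls at 3 h became 0, and single libraries left out gave 1 to 16.

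The loci lower in KO at 0 h were Gm16146 and Gm41590. Gm41590 overlaps Ccnd3, the cyclin D3 gene, and had 20.8, 19.1 and 17.1 CPM in WT and 5.92, 10.6 and 11.1 in KO at 0 h. The groups did not overlap, which the naming rule required and which held for 15.1% of all features here. The difference was -1.03 (SE 0.22, edgeR adjusted p = 0.027) and was lost without any 1 of 5 of these 6 libraries. Ccnd3 on its own strand differed by -0.07 (adjusted p = 0.962). After 0 h the highest Gm41590 level in any library of either genotype was 6.16 CPM.

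Gm31356, overlapping Gpam, which encodes the first enzyme of glycerolipid synthesis, was higher in KO at 3 h. It had 36.1, 24.9 and 22.3 CPM in KO against 16.2, 15.9 and 13.3 in WT. There was no overlap between the groups, and the difference of 0.88 (adjusted p = 0.0169) stood beside 0.58 for Gpam (adjusted p = 0.02). It was lost without WT 3 h replicate 2, WT 3 h replicate 3 or KO 3 h replicate 1, and with only the compared groups fitted (adjusted p = 0.0592). Gm4274, unplaced and unshared, had 79.8, 79.6 and 77.9 CPM in KO and 52.98, 44.1 and 54.2 in WT at 3 h, a difference of 0.65 (adjusted p = 0.0373). This call was lost without any of 5 of these 6 libraries (adjusted p up to 0.232), with opposite-strand scaling (0.0715) and with only the compared groups fitted (0.0723). At 12 h both genotypes had 45.1 to 54.3 CPM of it. Gm41176 was higher in KO at 12 h, with 14.3, 20.1 and 14.7 CPM against 6.44, 7.38 and 11.0 in WT, and this difference of 0.98 (adjusted p = 0.0363) was lost without any of 5 single libraries.

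The response to time differed between genotypes at 3 loci, with 0.0291% of all features called for 1 h, 0.145% for 3 h and 0.0581% for 12 h. For 1 h edgeR called none of the members. An unadjusted p under 0.05 was found for 43 members and for 346 of all 3440 features, and DESeq2 called 4 members and 6 features. At 3 h the KO response exceeded the WT response at Gm16146 and Gm34218, and at 12 h at Gm16146 and Matcap2.

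Gm16146 overlaps Cyb5a, which encodes the electron carrier cytochrome b5, and its reads were unshared. In WT it had 31.8, 28.6 and 25.6 CPM at 0 h, 29.6, 29.1 and 31.5 at 1 h, 17.4, 16.9 and 24.2 at 3 h, and 26.4, 25.8 and 23.6 at 12 h. In KO it had 17.6, 14.6 and 12.8 CPM at 0 h, 31.8, 30.7 and 37.7 at 1 h, 33.4, 27.3 and 33.8 at 3 h, and 43.6, 36.05 and 32.9 at 12 h. At 0 h all KO libraries lay below all WT libraries, at 3 and 12 h all lay above, and at 1 h the genotypes overlapped. KO minus WT at 0 h was -0.94 (SE 0.18, edgeR adjusted p = 0.0135), lost without WT 0 h replicate 1, KO 0 h replicate 2 or KO 0 h replicate 3. KO minus WT at 3 h and at 12 h did not pass in the same test. Cyb5a ran from 224 to 330 CPM on its own strand and was not called in any of these comparisons. The difference at 0 h and the differences in response all rest on the same 6 mice at 0 h.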

How the data were processed

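RNA was sequenced from 24 livers, 3 mice in each of 8 groups. Per the submitters' processing notes, the authors used STAR and genome build mm39; the STAR version, annotation and read filters were not given in the sources used here. The deposited files hold raw counts per gene in 3 columns, without regard to strand, on the gene's strand and on the opposite strand. Rows that name no gene were left out of library sizes. Per the labels each library is a separate mouse, and nothing says that replicate numbers pair mice.

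Members, lists and tests were chosen with earlier results of these data known. In R 4.3.3, opposite-strand counts of all genes kept by filterByExpr (3440 features) were fitted with edgeR 4.0.16 (quasi-likelihood, robust, 1 mean per group, all 24 libraries), with library sizes and TMM factors from the gene-strand counts. P-values were two-sided and adjusted by Benjamini-Hochberg over all tested features, with calls at 0.05. Gene-strand counts of 12046 genes were fitted in the same way. Single values at the Egfr locus were tested by 160000 exact permutations of genotype within times, with a pseudocount of 1 CPM.

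Named are Egfros and Egfr, the 15 members with most counts, the genes beside each threshold, and per comparison up to 6 called members each way (3 for differences of response) with the largest change, a mean of 5 CPM or more in the higher group, and no overlap between groups. Because the rule asks for no overlap, non-overlap at a locus picked for that comparison is no separate support for its change. Over all features, 15.1% did not overlap for KO vs WT at 0 h and 42.5% for WT at 12 h against 0 h. Neighbours came from GENCODE M21 and RefSeq on GRCm38, by name. Alternatives were DESeq2 1.42.0, other scalings and filters, unstranded counts, the compared groups alone, a replicate block, other thresholds for members, and leaving out libraries. The omission of WT 3 h libraries 2 and 3, also with KO 1 h replicate 1, was chosen after seeing the data. Chi-squared per degree of freedom between replicates of a group ran from 2.07 to 35.0, where counting noise alone gives about 1, and the median member had 68.1 counts per library. Samples at 6 h and 24 h are not analysed here. Values of 2 members chosen by the naming rule are not described in the text.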

Additional observations from a re-analysis of the deposited data

Results flagged for a closer look

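At 3 loci the change from 0 h differed between genotypes by a test of the difference itself (edgeR's quasi-likelihood test with Benjamini-Hochberg adjustment over 3440 features). For Gm16146, overlapping Cyb5a, the KO response exceeded the WT response by 1.63 log2 units at 3 h (SE 0.25, adjusted p = 0.000177) and by 1.51 at 12 h (SE 0.26, adjusted p = 0.00139). Both calls held without each of the 24 libraries in turn. Its KO levels started below WT at 0 h and lay above WT at 3 and 12 h, while Cyb5a on its own strand had response differences of -0.04 and -0.09 that did not pass. Of the KO minus WT differences of Gm16146 at single times, only that at 0 h passed. That call was lost without any of 3 single libraries.

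For Gm34218, overlapping the transcription factor gene Nfia, the difference at 3 h was 1.74 (SE 0.36, adjusted p = 0.0165). It had 10.1, 20.3 and 15.0 CPM in WT at 0 h and 5.53, 9.46 and 8.69 at 3 h, and in KO 8.09, 6.78 and 7.89 at 0 h and 10.0, 19.7 and 10.9 at 3 h. WT thus fell where KO rose, with no overlap in either genotype. The call was lost without WT 0 h replicate 2, KO 0 h replicate 2, KO 0 h replicate 3 or KO 3 h replicate 2. It was also lost with only the compared groups fitted (edgeR adjusted p = 0.0682) and with unstranded counts (adjusted p = 0.0617).

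For Matcap2, a gene of a tubulin-modifying peptidase family, the difference at 12 h was 1.88 (SE 0.40, adjusted p = 0.0303). It had 6.08, 8.05 and 6.59 CPM in WT at 0 h and 4.19, 3.12 and 4.99 at 12 h, and in KO 2.96, 5.75 and 3.33 at 0 h and 7.76, 9.70 and 9.29 at 12 h. The call was lost without any of 7 single libraries, with DESeq2 (adjusted p = 0.0687) and with unstranded counts (edgeR adjusted p = 0.0807).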

How the results depend on the processing

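Values are numbers of members (of 300 tested), then of all opposite-strand features (of 3440), with an adjusted p under 0.05. "Response" is the KO response minus the WT response. DESeq2 gave 4, 4 and 1 members for the response at 1 h, 3 h and 12 h and 2 and 8 for KO vs WT at 1 h and 3 h, with 6, 9 and 1 features for the responses and 2 at 0 h. A minimum of 1 CPM in 3 libraries gave 1 member and 2 features for the 1 h response, as did scaling by the opposite-strand counts. Library size alone gave 2 members and 3 features there, and 1 member for KO vs WT at 1 h and at 12 h. Members with at least 1000 counts in all gave 1 for the 12 h response and 1 for KO vs WT at 0 h. With no low-count filter there were 5 members for the 1 h response and 5 and 3 for KO vs WT at 0 h and 1 h, with 11, 16 and 5 features for the responses and 12, 11, 26 and 1 for KO vs WT at 0 h, 1 h, 3 h and averaged. Fitting only the groups compared gave 1 and 1 members for the responses at 1 h and 3 h and 0 for KO vs WT at 3 h, with 3 features for the 1 h response, 8, 1 and 4 for KO vs WT at 0 h, 1 h and 3 h, 433 and 600 in WT at 3 h and 12 h, and 690 in KO at 12 h. The replicate block gave 4 members and 5 features for the 1 h response and 1 member for KO vs WT at 1 h. It changed no other count by over 1.5 times and no call of a named member; deviations of same-numbered mice correlated at -0.185 to 0.205, so the numbers are not read as pairs. Unstranded counts gave 4 and 1 members for the responses at 1 h and 12 h and 1, 4, 3 and 0 for KO vs WT at 0 h, 1 h, 3 h and 12 h, with 59 and 18 features for the responses at 1 h and 3 h, 2, 66, 129 and 7 for KO vs WT, 1066, 1878 and 3465 in WT and 1018, 1323 and 3901 in KO at 1 h, 3 h and 12 h.

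Without WT 3 h libraries 2 and 3 there were 5 members for the 1 h response, 4, 3 and 0 for KO vs WT at 0 h, 1 h and 3 h and 40 in WT at 3 h, with 8, 17 and 5 features for the responses and 12, 11 and 9 for KO vs WT. Without KO 1 h replicate 1 as well, members were 7 for the 1 h response, 4, 1 and 1 for KO vs WT at 1 h, 3 h and averaged and 44 in WT at 3 h, with 26, 26 and 4 features for the responses and 12, 16 and 1 for KO vs WT at 0 h, 1 h and averaged. The cause of these shifts was not tested.

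Leaving out 1 library at a time gave, for members, 43 to 65, 54 to 74 and 89 to 107 in WT at 1 h, 3 h and 12 h, 42 to 65, 49 to 68 and 93 to 119 in KO, 0 to 4, 0 to 3, 1 to 16 and 0 to 5 for KO vs WT at 0 h, 1 h, 3 h and 12 h, 0 to 1 averaged, and 0 to 5, 1 to 9 and 1 to 4 for the responses. Features ran from 356 to 551, 510 to 798 and 914 to 1180 in WT, 390 to 647, 575 to 788 and 948 to 1240 in KO, 0 to 12, 0 to 13, 2 to 63 and 3 to 22 for KO vs WT, 0 to 2 averaged, and 0 to 8, 2 to 26 and 1 to 5 for the responses. The mean log2 difference, KO minus WT, ran from -0.20 to 0.02 for Egfros, -1.70 to -1.49 for Egfr, -0.03 to 0.18 for Gm39584, 1.41 to 1.63 for Egfros over Egfr and 1.58 to 1.80 for Gm39584 over Egfr.

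Of 111 called values of named members, 81 kept their call without each of the 24 libraries in turn and 30 lost it at least once. Over 1404 other alternatives to the 128 named values, 1320 kept direction and call, 77 lost the call and 7 turned direction. With unstranded counts, log2 changes became 0.53 for Ccdc152 and 1.35 for Gm867 in KO at 12 h, -0.79 for Gm10069 and -0.28 for Gm30505 in WT at 3 h, and 0.34 for Gm10069 in KO vs WT at 3 h. Gm10069 in WT at 3 h became -0.0673 without WT 3 h libraries 2 and 3, and -0.0671 also without KO 1 h replicate 1. The causes were not tested. The median member had 68.1 counts per library, which limits what can be called among the lower loci.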
